A study of Mus musculus with 9 samples.

Results

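The 8 genes described here encode transcription factors of the AP-1 group, namely Fos, Fosb, Fosl1 and Fosl2 of the Fos family, Jun, Junb and Jund of the Jun family, and Atf3. They were chosen by name, as 8 of the 18194 genes that had at least 1 probe set with a single gene symbol, and 12 of the 45101 probe sets on the array belong to them. Where a gene had more than 1 such probe set, the main one was that with the highest mean over the 9 arrays. The arrays held RNA from marrow cells of FVB/NJ mice that had been sorted as CD45.1- and Ter119-, that is, without CD45.1, an allelic form of the leukocyte protein CD45, and without the erythroid surface marker Ter119. The labels call these cells stromal. There were 3 arrays of wild-type mice (WT), 3 of leukemic recipients in the early phase (E, with 1 to 5% leukemic cells in the marrow) and 3 of recipients in the medium phase (M, with 5 to 50%). The labels call the arrays of a group biological replicates. They give no leukemia model, age, batch or scan date, so a batch that ran with the groups cannot be told apart from them.

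AP-1 factors bind DNA as dimers through a basic region next to a leucine zipper. Fos proteins cannot pair with themselves and need a Jun partner, whereas Jun proteins can also pair with each other or with ATF factors. Growth factors, cytokines and stress switch several of these genes on within minutes through MAP kinases, which is why Fos and Jun are the textbook immediate early genes. In bone, Fos is needed for osteoclasts to form, and Fosl1 and Fosl2 act in bone-forming cells and cartilage of the mouse.

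Values are log2 MAS5 signals, the scale on which they were deposited, and a gene's level can be compared between arrays but not with the level of another probe set. The number of arrays limits their precision. The median signal of all probe sets stood at 5.64 for WT, 5.50 for E and 6.26 for M, and the 12 probe sets for poly-A control RNAs, designed to be spiked in before labelling, read 1.01 higher in M than in WT and -0.01 apart between E and WT. The gap between the 3' and 5' probe sets of Actb, which widens as RNA degrades, lay between 0.99 and 1.15 in the WT arrays, 0.96 and 1.16 in the E arrays and 1.02 and 1.35 in the M arrays. The same gap for Gapdh was 0.43, 0.34 and 0.07 in the M arrays, against at most 0.20 in the WT and 0.08 in the E arrays, and its part in the results was not tested. M replicate 3 stood apart from the other M arrays, with a root mean square difference of 0.44 from each of them over the 9097 genes tested, whereas M replicates 1 and 2 differed by 0.21. All 8 marrow stroma markers looked for were on the array and read 7.87 ± 0.19 in WT, 8.02 ± 0.11 in E and 12.27 ± 0.13 in M on average (SD, n = 3). The 5 erythroid markers measured read 9.91 ± 0.20, 9.30 ± 0.22 and 10.47 ± 0.97 in the same order, and the 7 leukocyte markers 9.19 ± 0.07, 8.70 ± 0.09 and 10.56 ± 0.42. The values below are thus of the sorted cells as a whole. In such bulk RNA, fewer cells that express a gene and less of its RNA per cell cannot be told apart.

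The promoters of several of these genes carry elements through which AP-1 and related factors act, as background, so the 150 bases before the RefSeq start are shown for the 5 that held a letter match. RefSeq windows (GRCm38.p6, 250 bases before to 50 after the start) were found for 7 of the 8 genes. None of the 7 held the classical AP-1 site TGANTCA, which 7.81% of the 32851 windows of all genes held, or the full cyclic AMP response element TGACGTCA, which 1.79% held, on either strand. The core TGACG of that element occurred in 4 of the 7 windows and in 20.8% of all windows. Jun held TGACATCA, a variant site known for binding Jun and ATF2, at position -45 from the start, which 3.62% of all windows held. The letters of TGACG are part of TGACGTCA, and TGACATCA overlaps neither. Capitals mark TGACG, its complement CGTCA in Atf3, or TGACATCA in Jun, and each line runs 5′ to 3′ in the direction of the gene.
Fos: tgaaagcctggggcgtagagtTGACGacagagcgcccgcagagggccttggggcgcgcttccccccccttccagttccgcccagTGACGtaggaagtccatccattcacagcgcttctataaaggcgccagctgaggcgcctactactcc
Fosb: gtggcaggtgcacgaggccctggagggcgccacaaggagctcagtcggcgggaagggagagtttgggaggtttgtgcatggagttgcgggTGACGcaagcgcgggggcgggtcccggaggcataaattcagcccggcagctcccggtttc
Jun: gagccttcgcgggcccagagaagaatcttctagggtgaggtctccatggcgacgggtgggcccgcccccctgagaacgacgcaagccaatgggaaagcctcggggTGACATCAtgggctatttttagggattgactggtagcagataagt
Junb: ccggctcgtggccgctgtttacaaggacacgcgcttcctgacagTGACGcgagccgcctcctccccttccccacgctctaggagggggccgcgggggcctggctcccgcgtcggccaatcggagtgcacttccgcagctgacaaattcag
Atf3: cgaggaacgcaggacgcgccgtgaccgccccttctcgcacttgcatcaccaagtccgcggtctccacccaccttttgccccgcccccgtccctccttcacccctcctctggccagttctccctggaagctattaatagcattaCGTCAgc
These stretches lie at chr12:85473740-85473889 (plus strand), chr7:19310046-19310195 (minus), chr4:95052223-95052372 (minus), chr8:84978749-84978898 (minus) and chr1:191183334-191183483 (minus). The full RefSeq span of Fosb reaches to 19310118, so part of its stretch lies within the gene, and its window counts from a start further inside. Counted from the start the core begins at -129 and -66 in Fos, and the letters of a TATA box, TATAAA, at -33. A letter match is a description of the sequence and was not tested as a binding site.

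E was set against WT to see what had changed while leukemic cells were few. AP-1 signals were lower in E: Fos, Jun and Jund fell, and the other 5 genes had lower means that did not pass the test. Jun fell 2.12-fold (log2 change -1.08 ± 0.07 SE, adjusted p = 1.89e-05), Fos 1.92-fold (-0.94 ± 0.07, adjusted p = 3.81e-05) and Jund 1.59-fold (-0.67 ± 0.09, adjusted p = 0.00283), in limma with Benjamini-Hochberg adjustment over all 9097 genes tested. The median change of the 8 genes was -0.67, beside 0.01 over all genes tested. Across these genes, 2.11% passed, 1.65% as lower and 0.462% as higher.

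Within the Fos family, Fos itself, the partner that gives AP-1 dimers with Jun their strong activity, read 11.72, 11.86 and 11.84 in the E arrays, against 12.69, 12.79 and 12.76 in the WT arrays. The groups were far apart compared with their spread. Fosb, a close relative that also appears briefly after stimulation, read 6.27, 6.48 and 6.80 in E, against 7.18, 7.72 and 7.11 in WT. These groups did not overlap either, but the change of -0.83 (95% interval -1.28 to -0.37) did not pass (adjusted p = 0.0759). It passed when M replicate 3 was dropped from the model (adjusted p = 0.0142), with array weights (0.00611) and with only E and WT in the fit (0.0394). Fosl1 and Fosl2 lack the activation domain of Fos and follow it in time after stimulation. Fosl2 read 6.02, 6.51 and 5.69 in E, against 6.33, 6.72 and 6.99 in WT, and Fosl1 read 6.13, 5.32 and 6.53, against 6.58, 6.03 and 6.38. The E and WT arrays overlapped for both, and their changes of -0.61 (interval -1.10 to -0.12, adjusted p = 0.239) and -0.34 (-0.98 to 0.31, adjusted p = 0.655) did not pass. Fosl1 lay near the array median, and its mean change was 0.00 without E replicate 2.

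**Figure D1:**
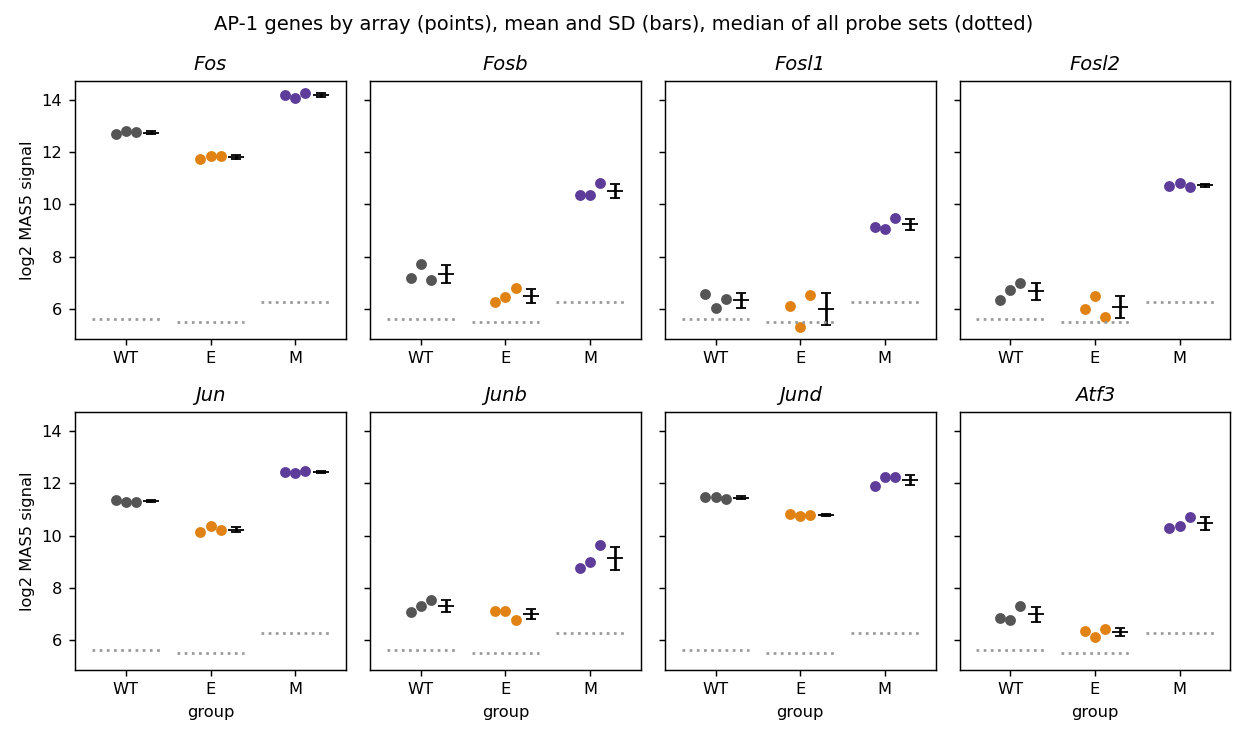
Log2 MAS5 signal (vertical axis) of the 8 AP-1 genes in each array (points) of WT, E and M, with mean and SD (n = 3) at the right of each group and the group's median over all probe sets as a dotted line. The E points of Fos, Jun, Jund, Fosb and Atf3 lie below every WT point, and the M points of all 8 genes lie above every other point, although Jund in M was below WT by 0.33 on average with arrays scaled on the spike-ins.

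In the Jun family, Jun, whose protein forms the core of most AP-1 dimers, read 10.14, 10.35 and 10.20 in E, against 11.35, 11.30 and 11.28 in WT. Jund, the member present in most resting cells, read 10.81, 10.74 and 10.80 in E, against 11.47, 11.49 and 11.38 in WT. Both genes had 3 E arrays below all WT arrays. The call of Jund was lost with arrays scaled on the spike-ins (-0.66, adjusted p = 0.0769) and with the mean of its probe sets (-0.59, adjusted p = 0.446). Junb, which can hold back Jun on some promoters, read 7.13, 7.11 and 6.78 in E, against 7.09, 7.31 and 7.53 in WT. Its groups overlapped and the change of -0.30 (interval -0.79 to 0.19) did not pass (adjusted p = 0.597). Atf3, a stress-induced factor that pairs with Jun proteins and often represses, read 6.35, 6.12 and 6.44 in E, against 6.86, 6.78 and 7.31 in WT. The arrays did not overlap, yet its change of -0.68 (interval -1.09 to -0.28) did not pass (adjusted p = 0.0960). It passed without M replicate 3 (adjusted p = 0.0265) and with array weights (0.0114).

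In all, 3 of 8 genes passed as lower and 0 as higher, and all 8 means were lower in E under each of the 3 other scalings tried. For 5 of 8 the E arrays lay below all WT arrays, which held for 14.7% of all genes tested, while 15% had E arrays above all WT arrays and 29.7% had no overlap in either direction. Over all genes, 42 passed as higher and 150 as lower, a split that turned to 131 and 103 with arrays centred on their medians, and the total of 192 lay at 98 to 113 without any 1 of the E or WT arrays and at 836 without M replicate 3.

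Several marker sums did not overlap between E and WT either. The 7 chondrocyte markers, all on the array and none listed at 0, summed to a linear signal of 12875 to 13476 in the E arrays, against 22344 to 26341 in the WT arrays. The 6 pericyte and smooth muscle markers summed to 214 to 251 in E, against 344 to 401 in WT, and the 7 leukocyte markers to 3155 to 3415, against 4411 to 4891. All members of these 3 lists had lower means in E. Of the pericyte and smooth muscle markers, 3 (Tagln, Myh11 and Mcam) lay below the array medians in both groups, which limits what their direction can show. The 6 macrophage markers summed to 635 to 742 in E, against 976 to 1206 in WT (5 with lower means), and the 5 erythroid markers measured of 7 to 20775 to 21737, against 26989 to 29908 (4 with lower means). Adgre1, C1qa and C1qb of the macrophage list and Hba-a1 of the erythroid list lay below the array medians too. Sums were higher in E for B lineage markers, with 511 to 558, against 218 to 297 (5 of 5 with higher means, though Cd79a lay below the array medians). They were also higher for the 10 granulocyte markers, with 12741 to 13879, against 9895 to 10981. Of the granulocyte markers, 7 had higher means, among them S100a8 (11.73 in E and 9.48 in WT), and 3 had lower means, namely Mpo (11.75 and 12.31), Prtn3 (10.53 and 10.72) and Ctsg (10.70 and 11.10). The 8 marrow stroma markers summed to 4799 to 5196 in E, against 3710 to 4238 in WT, but 4 had higher and 4 lower means, and Col1a1 (11.33 in E and 10.67 in WT) carried most of the sum's difference. The part of any of these cells in the AP-1 change was not tested.

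The rest of the pathway was looked at through 6 gene lists, of which only genes bright enough to be tested were counted. With 2.11% of all genes passing in E, lists of this size can be left with no call. This was so for the 8 measured MAP kinases and MAP kinase kinases (median change 0.00), the 10 factors that drive Fos and Jun (median -0.19) and the 11 other bZIP factors that pair with or oppose AP-1 (median -0.05). The smallest p among them belonged to Elk3, an ETS factor of the serum response (-0.48, adjusted p = 0.333), and Atf2, a partner of Jun (-0.18, adjusted p = 0.333). Other immediate early genes fell in 7 of 19 cases, with 0 higher and a median of -0.54. Among them were Ccn2, a matricellular growth factor (-1.54, adjusted p = 7.40e-07), Dusp1, a phosphatase that switches MAP kinases off (-1.14, adjusted p = 0.000154), the kinase gene Sgk1 (-1.19, adjusted p = 0.000280) and the growth arrest gene Btg2 (-1.14, adjusted p = 0.000577).

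Of 11 genes known as AP-1 targets, 5 fell, 0 rose and 6 did not pass, with a median of -0.48. Of all genes tested, 1.65% passed as lower. Ptgs2, the inducible prostaglandin synthase, read 8.59 ± 0.14 in E and 10.07 ± 0.19 in WT (SD, n = 3, limma adjusted p = 0.000154). Fibronectin (Fn1) read 9.96 ± 0.06 in E and 11.21 ± 0.16 in WT (adjusted p = 9.70e-05), and the protease inhibitor gene Timp1 8.11 ± 0.02 and 9.05 ± 0.09 (adjusted p = 0.000632). Vimentin (Vim) fell by 0.48 (adjusted p = 0.0282), which did not pass once any single E or WT array was dropped, nor under any of the other 3 scalings. Mmp13, the collagenase gene often used as an AP-1 reporter, differed by -0.08 (adjusted p = 0.749). Among 10 heat shock genes, a class known to respond to cell stress, 1 fell and 9 did not pass (median 0.03). The gene that fell was Hspb1 (-1.21, adjusted p = 0.000183), a small heat shock protein.

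**Figure D2:**
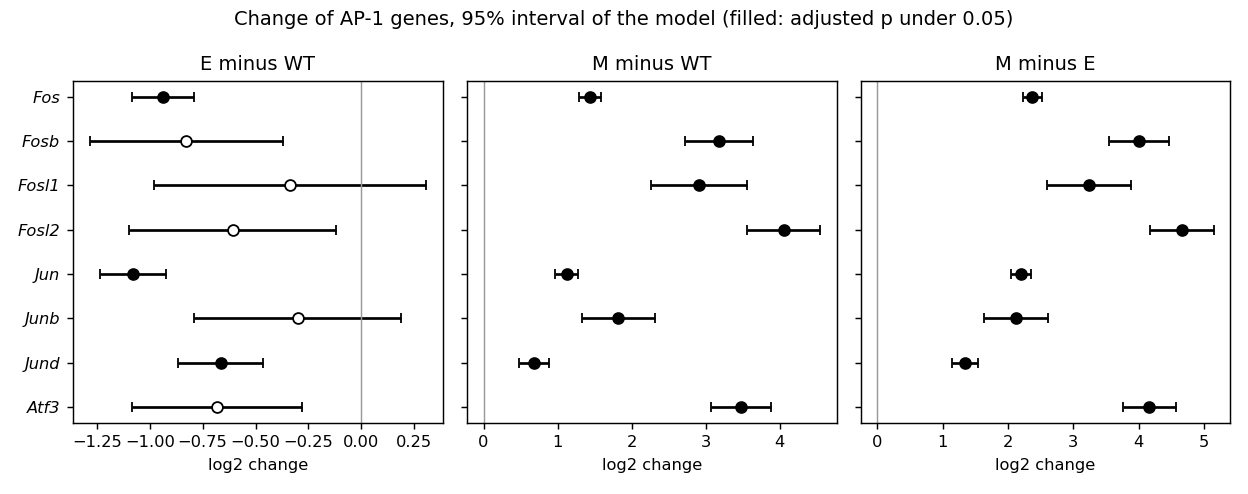
Log2 change (horizontal axis) of each AP-1 gene in E minus WT, M minus WT and M minus E, with the model's 95% interval, and filled points for an adjusted p under 0.05. In E minus WT 3 of 8 points are filled and all lie below 0, and in the other comparisons all 8 are filled and lie above 0, where only that of Jund in M minus WT changes sign under a tried scaling (-0.33 with spike-ins).

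M was set against WT to see what differed once leukemic cells made up 5 to 50% of the marrow. All 8 AP-1 genes rose in M on the deposited scale, and the late Fos family members, Fosb and Atf3 rose most: Fosl2 16.6-fold, Atf3 11.1-fold, Fosb 9.04-fold and Fosl1 7.50-fold. Junb rose 3.53-fold, Fos 2.70-fold, Jun 2.18-fold and Jund 1.60-fold, although Jund was lower with arrays scaled on the spike-ins (-0.33, adjusted p = 0.119) and did not pass with arrays centred on the median (0.05, adjusted p = 0.649) or with the mean of its probe sets (0.51, adjusted p = 0.152). These folds are of the main probe sets. The other probe set of Jun rose by 2.51 on the log2 scale and that of Fosl2, too dim to be tested, by 1.37, which would change the order. In M, 68.8% of all genes passed, 25.3% as higher and 43.5% as lower, so a call by itself is common in this comparison. The median change of the 8 genes was 2.36, beside -0.19 over all genes tested.

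Fosl2 read 10.72, 10.80 and 10.68 in M, against 6.33, 6.72 and 6.99 in WT (log2 change 4.05 ± 0.22 SE, adjusted p = 6.11e-08), rank 159 of 9097 genes by rise. Fosb read 10.38, 10.35 and 10.82 in M, against 7.18, 7.72 and 7.11 in WT (3.18 ± 0.21, adjusted p = 2.47e-07). Fosl1 read 9.15, 9.06 and 9.49 in M, against 6.58, 6.03 and 6.38 in WT (2.91 ± 0.29, adjusted p = 7.20e-06). For these 3 genes every M array lay more than a log2 unit above every WT array. The WT and E means of Fosl2 (6.68 and 6.07) and Fosl1 (6.33 and 5.99) lay below the filter of 6.83 on a gene's mean over 9 arrays. Atf3, with 6.98 in WT and 6.30 in E, also averaged below this filter over the WT and E arrays. Fosl2, Fosl1 and Atf3 were thus tested only through their M arrays, which favours a rise in M. Fos read 14.20, 14.09 and 14.26 in M, against 12.69, 12.79 and 12.76 in WT (1.43 ± 0.07, adjusted p = 1.82e-08). Its M arrays were again above all WT arrays.

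Jun read 12.43, 12.40 and 12.46 in M, against 11.35, 11.30 and 11.28 in WT (1.12 ± 0.07, adjusted p = 1.79e-07), and its call was lost with spike-in scaling (0.11, adjusted p = 0.606). Junb read 8.76, 9.003 and 9.62 in M, against 7.09, 7.31 and 7.53 in WT (1.82 ± 0.22, adjusted p = 3.05e-05). Jund read 11.90, 12.24 and 12.24 in M, against 11.47, 11.49 and 11.38 in WT (0.68 ± 0.09, adjusted p = 6.11e-05). The Jun family thus had M arrays above all WT arrays in each of its 3 genes on the deposited scale (Jund turned to -0.33 with spike-in scaling), with the widest spread within M in Junb, highest in M replicate 3. Atf3 read 10.30, 10.36 and 10.73 in M, against 6.86, 6.78 and 7.31 in WT (3.48 ± 0.18, adjusted p = 4.44e-08). For all 8 genes the M arrays lay above all WT arrays, which held for 26.5% of the genes tested (45.5% lay below, and 72% did not overlap), and all 8 calls were kept without any 1 of the 9 arrays.

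The scale of the M arrays bears on these sizes. MAS5 sets the trimmed mean signal of every array equal, and scaling on the spike-ins or on array medians put the median change of all tested genes at -1.20 or -0.82, beside -0.19 on the deposited scale. Both shift all genes of an array alike and leave differences between genes as they are. Relative to the median of all genes, Jund was 0.87 higher in M than in WT on the deposited scale and 1.11 higher after quantile normalization, and Fosl2 4.24 and 4.19 higher. Over all genes, 2306 passed as higher and 3953 as lower on the deposited scale, 1262 and 6639 with median centring and 966 and 7222 with spike-in scaling.

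**Figure D3:**
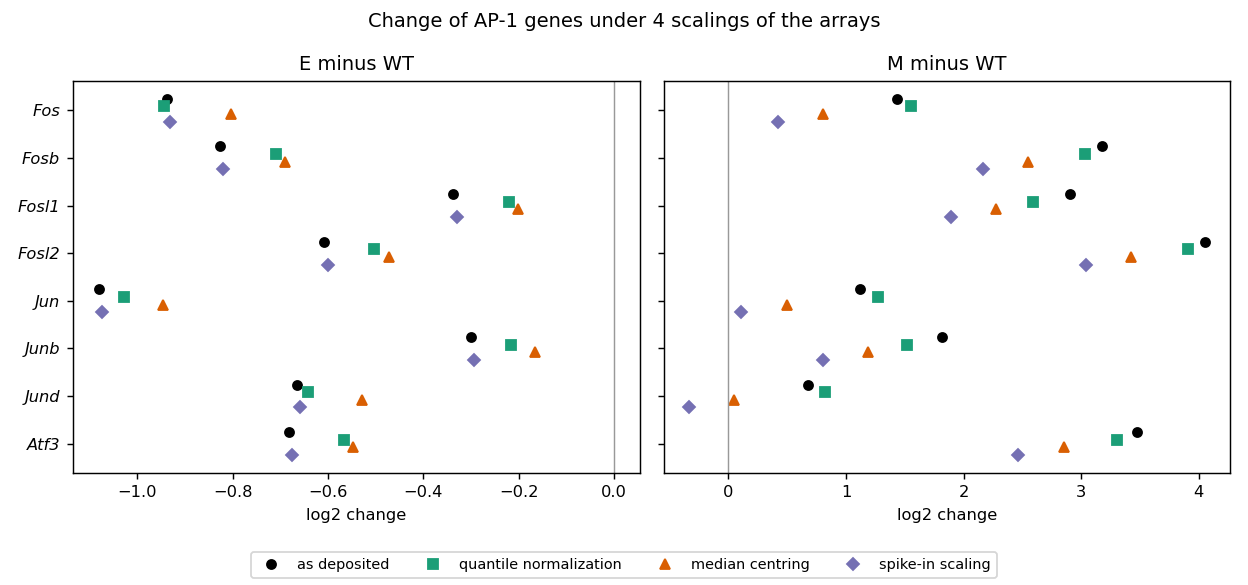
Log2 change (horizontal axis) of the 8 AP-1 genes in E minus WT and M minus WT on the deposited scale and under 3 other scalings of the arrays. All points of E minus WT lie below 0, and in M minus WT the point of Jund lies at -0.33 with spike-in scaling and at 0.05 with median centring, while the other 7 genes lie above 0 in all 4.

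Summed marker signals were higher in M for every cell type looked for but the erythroid one, whose M arrays lay on both sides of WT. Marrow stroma markers summed to a linear signal of 53208 to 66159 in the M arrays, against 3710 to 4238 in the WT arrays, and chondrocyte markers to 88894 to 96877, against 22344 to 26341. Granulocyte markers summed to 93442 to 112954 in M, against 9895 to 10981 in WT, leukocyte markers to 8832 to 16038, against 4411 to 4891, and the 6 endothelial markers to 985 to 1393, against 211 to 285. The 6 pericyte and smooth muscle markers summed to 3305 to 6340, against 344 to 401, the 4 osteoblast markers measured of 6 to 8387 to 12462, against 854 to 979, the 5 B lineage markers measured of 6 to 1742 to 3506, against 218 to 297, and the 6 macrophage markers to 2808 to 3222, against 976 to 1206. Without Vcam1, which is also among the marrow stroma markers, the other 5 macrophage markers summed to 1086 to 1218 in M, against 816 to 1035 in WT, and Csf1r had a lower mean in M (9.53) than in WT (9.66). Of the B lineage markers, 4 had higher means in M and 1 a lower one, Cd79a (2.22 in M and 2.92 in WT). The highest of them in M were Ebf1 (9.70, against 4.55 in WT) and Igll1 (9.68, against 6.15). The 5 erythroid markers measured of 7 summed to 12343 to 36857 in M, against 26989 to 29908 in WT. Among the M arrays, Alas2, Slc4a1, Klf1 and Epb42 were lowest in M replicate 3, where Alas2 read 8.50, against 11.74 and 11.58. Hba-a1, which was dim, was not lowest there. None of the markers was listed at 0 in all arrays of a group, and their part in the AP-1 rise was not tested. List means were compared by exact two-sided permutation of the arrays, where 3 against 3 allow no p below 0.1.

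Other immediate early genes passed as higher in 18 of 19 cases in M, with a median of 2.73 (17 higher and 2 lower with median centring, 15 and 2 with spike-in scaling). Of all genes tested, 25.3% passed as higher and 43.5% as lower, with a median of -0.19. Egr1, a zinc finger factor induced together with Fos, read 14.26 ± 0.10 in M and 10.21 ± 0.06 in WT (SD, n = 3, limma adjusted p = 1.62e-11). Ccn1, a matricellular protein, rose 14.7-fold (adjusted p = 3.20e-09), Ier3, an early response gene of survival, 10.9-fold (adjusted p = 4.97e-09) and Ccn2 3.52-fold (adjusted p = 5.17e-09). Of the 11 AP-1 targets, 9 rose and 0 fell, with a median of 2.88 (9 and 2 with either of those scalings, 9 and 1 after quantile normalization). Mmp13 rose most among them, 51.5-fold, to 14.08 ± 0.08 in M, against 8.40 ± 0.10 in WT (adjusted p = 1.58e-11). Timp1 rose 8.93-fold (adjusted p = 2.12e-09), Fn1 7.47-fold (adjusted p = 3.33e-09) and Vim 7.37-fold (adjusted p = 2.54e-09). Among the AP-1 targets, Il6 (5.99 in WT and 4.82 in E) and Hmox1 (5.88 and 5.84) had means below the filter's 6.83 outside M. They were tested only through their M arrays, as were Egr2 (5.64 and 5.83), Egr3 (6.44 and 5.79) and Nr4a1 (6.69 and 6.65) of the immediate early genes. So was Klf2 (6.88 and 6.42) of the same list, whose WT and E arrays together averaged below the filter. Genes high in M were thus favoured in the counts and medians of both lists.

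Of 8 MAP kinases and MAP kinase kinases, which act before AP-1, 0 rose, 4 fell and 4 did not pass in M, close to the 43.5% of all genes that passed as lower. Their median of -0.25 lay near the -0.19 of all genes, and 7 and 8 passed as lower with median centring and spike-in scaling (1 higher and 4 lower after quantile normalization). Mapk9, which encodes the Jun kinase JNK2, fell by 0.51 (adjusted p = 5.17e-05), and Mapk14, which encodes p38 alpha, by 0.46 (adjusted p = 0.00136). Map2k4, which activates the Jun kinases, fell by 0.50 (adjusted p = 0.000931) and Map2k2, which activates ERK kinases, by 0.44 (adjusted p = 0.00259). Of all genes tested, 25.3% passed as higher. Among 10 factors that drive Fos and Jun, 7 rose and 1 fell, with a median of 0.29 (4 higher and 6 lower with median centring, 3 and 6 with spike-in scaling). They included Stat3, the factor of IL-6 signalling (2.16, adjusted p = 3.98e-08), Elk3 (2.15, adjusted p = 5.81e-06), Mef2a (1.70, adjusted p = 1.29e-05) and Mef2c (1.37, adjusted p = 1.50e-05).

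Of 11 other bZIP partners and antagonists, 9 rose and 0 fell, with a median of 0.62 (3 higher and 2 lower with median centring, 2 and 5 with spike-in scaling). Maf, a large Maf factor, rose 17.5-fold to 10.44 ± 0.28 in M, against 6.32 ± 0.07 in WT (SD, n = 3, limma adjusted p = 1.58e-08). Jdp2, a repressor that dimerizes with Jun, rose 9.98-fold to 9.82 ± 0.29 in M, against 6.50 ± 0.25 in WT (adjusted p = 1.24e-07). Maf and Jdp2 had WT and E means below the filter's 6.83 (E means 6.17 and 6.30). Batf (6.68 in WT and 6.91 in E) also averaged below the filter over the WT and E arrays. Maf, Jdp2 and Batf were thus tested only through their M arrays, which favours a rise in M. Bach1 (0.93) and Atf4 (0.62), a partner of small Maf proteins and the factor of the amino acid response, passed too but had changes of -0.08 and -0.39 with spike-in scaling, and Atf4 was at -0.01 with median centring. Of 10 heat shock genes, 3 rose and 2 fell, where 25.3% of all genes passed as higher and 43.5% as lower. The median of the 10 was 0.01, and 3 rose and 7 fell with median centring or spike-in scaling (4 and 1 after quantile normalization). The risen ones were Hspb1 (2.64, adjusted p = 8.25e-09) and the near-identical pair Hspa1a and Hspa1b (3.23 and 2.43), whose probe sets may share signal.

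**Figure D4:**
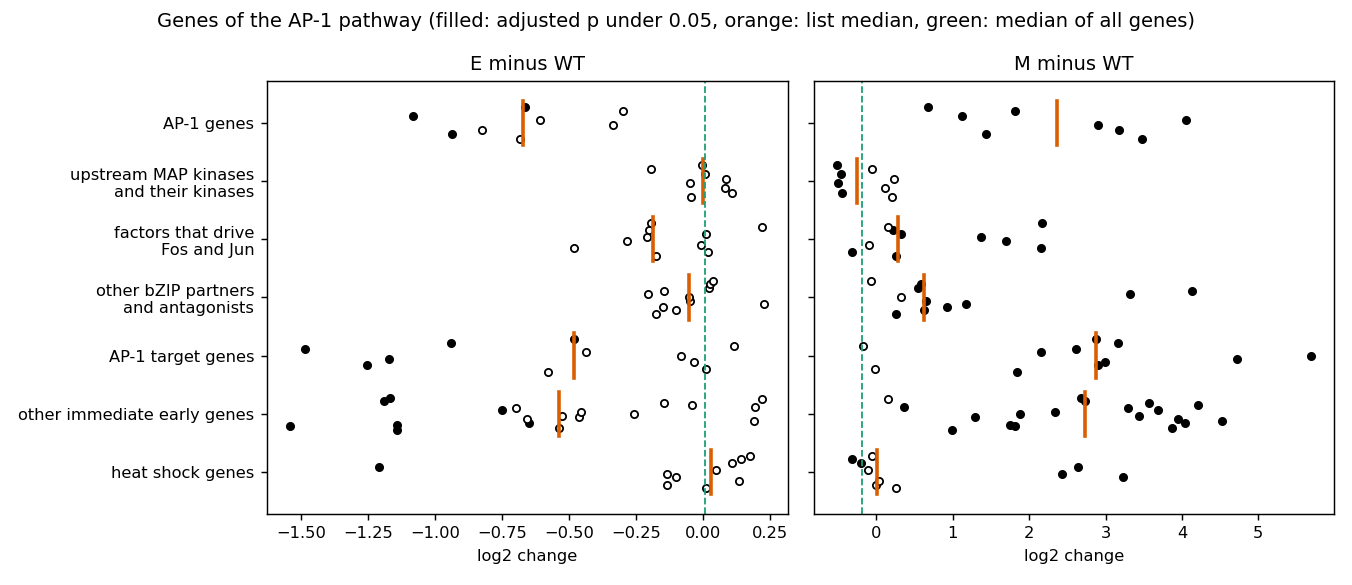
Log2 change (horizontal axis) of the AP-1 genes and of each tested gene of 6 related lists (rows) in E minus WT and M minus WT, with filled points for an adjusted p under 0.05, orange bars at list medians and a green dashed line at the median of all genes tested. Immediate early genes (median -0.54) and AP-1 targets (-0.48) lie to the left in E and far to the right in M (2.73 and 2.88), while MAP kinases lie near the line in both (0.00 and -0.25). With spike-in scaling the M medians of the factors that drive Fos and Jun, the other bZIP genes and the heat shock genes turn to -0.72, -0.39 and -0.998.

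The comparison of M with E, which shares its arrays with both others, sets the later phase against the earlier one. All 8 genes were higher in M (70% of all genes passed, 26.1% as higher and 43.9% as lower), with log2 changes between 1.34 for Jund and 4.66 for Fosl2 and a median of 2.81, beside -0.19 over all genes. Every M array lay above every E array for all 8, as for 27.2% of the genes tested (45.9% lay below, and 73.1% did not overlap). Fos was 5.18-fold higher (adjusted p = 4.25e-10), Jun 4.61-fold (adjusted p = 9.17e-10), Junb 4.34-fold (adjusted p = 7.94e-06) and Jund 2.54-fold (adjusted p = 2.68e-07). Of these, the call of Jund was lost with spike-in scaling (0.33, adjusted p = 0.124). The signals of all 8 genes were therefore ordered E, WT, M from low to high on the deposited scale, with WT and E not differing beyond the test for Fosb, Fosl1, Fosl2, Junb and Atf3.

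A further probe set was on the array for 4 of the 8 genes. In Jun, the dimmer probe set, fitted together with all 17479 bright probe sets of a single symbol, also fell in E (-0.77 ± 0.13 SE, adjusted p = 0.0129, where 1.3% of these probe sets passed) and rose in M against WT by 2.51 ± 0.13 (adjusted p = 3.71e-08, where 59.1% passed), more than the 1.12 of the main one. It was 3.28 higher in M than in E, where 60.3% passed. Those of Fosl2, Fosl1 and Jund were too dim to be tested. That of Fosl2 read 6.58, 6.63 and 6.57 in M, against 4.66, 5.42 and 5.60 in WT, a difference of 1.37 where the main one gave 4.05. Those of Fosl1 and Jund averaged 4.40 and 4.29, below the array medians, and the M and WT arrays overlapped for both, so no direction or size was read from them.

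Fos and Jun had the most alike patterns of the 8 genes. After each gene was centred on its mean over the 9 arrays, they had the smallest root mean square difference of the 28 pairs (0.14), followed by Fosb and Atf3 (0.32), while Fosl2 and Jund differed most (1.60). Over all genes tested, the patterns most like that of Fos were those of Col2a1 (0.12), the main collagen of cartilage, Adgrg3 (0.13), an adhesion receptor of granulocytes, and Col9a1 (0.13), another cartilage collagen. Those most like Jun were Fos (0.14), Btg2 (0.15) and Cd93 (0.15), a receptor of endothelial and myeloid cells. These are descriptions over 9 arrays in 3 groups, and genes with a rise of the same size in M come out as alike.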

How the data were processed

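Values are log2 MAS5 signals as the authors deposited them. The tool is MAS5 per the submitters' processing notes, and its version is not given in the sources used here. Labelling was by 3' amplification per the labels' protocols. Trimmed mean linear signals were checked and were alike on all arrays. Since the values were already on a log scale, no pseudocount was added, although 16 had been planned. A single gene symbol was annotated to 34958 of the 45101 probe sets. Those with several symbols (932) or with no entry (9211) were not used. The brightest probe set stood for a gene, and the 9097 of 18194 genes at or above the median mean (6.83) were tested. This mean covered all groups, so a gene dim in WT and E could pass the filter through its M arrays alone.

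Group means were fitted and compared by limma 3.58.1 (R 4.3.3) using all 9 arrays, with an intensity trend and Benjamini-Hochberg adjustment, called under 0.05. In 20 simulations of E with WT on 9097 genes, 200 of them changed, it recovered 88.05% of log2 changes of 1 and 98.5% of 2, with 9.15 false calls on average. The simulated noise was independent between genes and alike in all groups, and M was left unchanged. These rates may therefore not hold for the real arrays, where M replicate 3 stood apart. The AP-1 genes, gene lists and markers were chosen with earlier results of these data known. Of each list the 4 genes with the smallest p in E with WT and in M with WT could be named, and for Fos and Jun the 3 most alike genes. List symbols were matched to the array's annotation or through RefSeq synonyms (Mkl2 as Mrtfb, Cyr61 as Ccn1, Ctgf as Ccn2), and list genes with no single-symbol probe set were not analysed here. Further genes of the pathway lists were on the array but below the filter, and the list counts leave them out. These were Elk1, Mrtfa, Atf7, Batf2, Batf3, Maff, Mmp3, Mmp9, Plau, Ccl2 and Nr4a3. Alternatives were pseudocounts of 1 and 64, filters, scalings, variance models, the mean of a gene's probe sets, single groups, a replicate block and leaving out each array. Same-numbered arrays of different groups did not deviate together (correlations from -0.10 to 0.08), so numbers were not taken as pairs.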

Additional observations from a re-analysis of the deposited data

Results flagged for a closer look

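Fos, Jun and Jund passed as lower in E and as higher in M, each against WT. The difference between these changes is the change of M with E, which the model tested: it was 2.37 for Fos (adjusted p = 4.25e-10), 2.20 for Jun (adjusted p = 9.17e-10) and 1.34 for Jund (adjusted p = 2.68e-07), on the log2 scale and with limma. With spike-in scaling that of Jund was 0.33 and did not pass.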

How the results depend on the processing

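Numbers of genes called moved most in E with WT, where 192 passed: 85 with a stricter filter on dim genes (fewer were tested), 118 with quantile normalization, 848 with array weights, 756 with only the 2 groups compared, 99 with the mean of a gene's probe sets, and 98 to 836 when 1 array was left out, the highest without M replicate 3. The stricter filter gave 3466 in M with WT and 3485 in M with E. Of the AP-1 genes, 3 were left by that filter and 3 passed in each of these comparisons. In E with WT, 5 AP-1 genes passed with array weights and 3 to 5 when 1 array was left out. The change of Fosl1 in E with WT was 0.00019 without E replicate 2 and ranged from -0.61 to 0.00019 over the single arrays left out.

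Directions turned as follows. With spike-in scaling M with WT gave -0.33 for Jund, -0.75 for Atf2, -0.79 for Mrtfb, -0.082 for Bach1, -0.39 for Atf4 and -0.016 for Btg2, and M with E gave -0.58 for Atf2, -0.59 for Mrtfb and -0.30 for Atf4. With median centring M with WT gave -0.37 for Atf2, -0.40 for Mrtfb and -0.0051 for Atf4, and M with E gave -0.32, -0.34 and -0.041 for them. With the mean of probe sets, Atf2 in M with WT was -0.12. The cause was not tested. With a replicate block, 153 genes and 3 AP-1 genes passed in E with WT, 6100 and 8 in M with WT, and 6248 and 8 in M with E. Same-numbered arrays were not taken as pairs. Dim probe sets of Fosl1, Fosl2 and Jund lay near or below the array medians, which limits what they can show. List counts and list genes were put through these settings after the data had been seen.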
